A study of Homo sapiens with 18 samples.

Results

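Metallothioneins and zinc transporters were followed through an RNA-seq series on 2 human pancreatic ductal adenocarcinoma cell lines exposed to DCLK1-IN-1, a chemical inhibitor of DCLK1, a kinase of the doublecortin family. The genes were taken by symbol from the deposited table: MT1E, MT1F, MT1G, MT1X, MT2A, MTF1, SLC30A1, SLC39A4, SLC39A6 and SLC39A10, which are 10 of its 26249 gene rows. There were 6 groups of 3 libraries: for each of the established lines PATU-8902 and PATU-8988T, 24 h of 2.5 µM inhibitor, 6 h of 2.5 µM inhibitor, and the vehicle DMSO for 24 h. All cells grew in DMEM with 10% fetal bovine serum, which carries zinc, and neither zinc nor a chelator was part of any treatment named in the labels. The design text calls the replicates biological triplicates. No DMSO group stood at 6 h, so at 6 h the inhibitor and the time of harvest cannot be told apart. Values are FPKM, a read level per transcript length that the authors scaled between libraries on added ERCC spike-in RNA, per the design text.

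Metallothioneins are small, cysteine-rich proteins that bind zinc and copper in the cytosol and buffer the free pool of these metals. Most human metallothionein genes lie side by side on chromosome 16, and their transcription rises when free zinc rises, through the zinc-sensing transcription factor MTF1, which binds short metal response elements in their promoters. SLC30A1, the plasma membrane exporter ZnT1, is another known MTF1 target and moves zinc out of the cell. The SLC39 (ZIP) proteins move zinc into the cytosol: SLC39A4 (ZIP4) is the importer mutated in acrodermatitis enteropathica and is known to be raised in pancreatic cancer, while SLC39A6 (ZIP6) and SLC39A10 (ZIP10) are close relatives that form a complex with each other. Metallothionein genes also respond to glucocorticoids and to oxidative stress.

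After median-centring, explained below, MT2A and MT1X differ between the lines in the opposite direction from SLC30A1. The promoters of these 3 members are shown for that reason and because they hold matches to the core of the metal response element. Each is the 250 bases before the transcription start in RefSeq (GRCh38.p14), and capitals mark the core of the metal response element, searched as TGCACNC and TGCGCNC on both strands (on the printed strand the reverse form reads GNGTGCA or GNGCGCA).
MT2A, chr16:56608334-56608583, plus strand: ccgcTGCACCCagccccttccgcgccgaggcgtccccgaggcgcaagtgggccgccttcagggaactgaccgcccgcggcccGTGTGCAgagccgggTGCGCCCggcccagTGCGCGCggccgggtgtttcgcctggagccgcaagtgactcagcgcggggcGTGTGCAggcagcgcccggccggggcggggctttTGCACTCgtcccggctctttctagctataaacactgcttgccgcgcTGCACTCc
MT1X, chr16:56682220-56682469, plus strand: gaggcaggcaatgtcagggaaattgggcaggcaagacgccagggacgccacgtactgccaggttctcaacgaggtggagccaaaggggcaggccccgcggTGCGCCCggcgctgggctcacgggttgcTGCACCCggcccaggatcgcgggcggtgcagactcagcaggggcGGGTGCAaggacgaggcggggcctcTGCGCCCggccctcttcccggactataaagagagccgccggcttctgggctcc
SLC30A1, chr1:211579162-211579411, minus strand: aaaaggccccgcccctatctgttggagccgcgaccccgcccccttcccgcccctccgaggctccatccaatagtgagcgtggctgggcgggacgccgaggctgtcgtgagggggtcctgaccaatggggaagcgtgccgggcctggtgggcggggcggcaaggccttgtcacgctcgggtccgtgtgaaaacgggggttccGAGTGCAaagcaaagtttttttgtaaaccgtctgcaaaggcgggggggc
The MT2A window held 7 cores, the MT1X window 4 and the SLC30A1 window 1. Of 35116 windows of the same length in the RefSeq table, 24.8% held at least 1 core, 0.370% at least 4 and 0.120% at least 5. The SLC39A6 window held 1 core, and the windows of MTF1 and SLC39A10 held none. The windows of MT1E, MT1F, MT1G and SLC39A4 were not analysed here. Among metallothionein genes of low level, the window of MT1H held 8 cores, with at most 0.118 FPKM in any library, and that of MT1B held 3, with at most 0.956 FPKM. A match describes these letters and was not tested as a binding site.

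The libraries differed in overall level even though they were level on the spike-ins. The mean log2 deviation of the spike-in controls lay between -0.05 and 0.02 in every library, whereas the median FPKM of the 11477 kept genes (those averaging 1 FPKM or more across all libraries) ran from 6.12 to 17.4. PATU-8988T DMSO replicate 1 had the lowest median, 6.12, against 12.1 and 10.2 in the other PATU-8988T DMSO libraries. Each difference is therefore given as deposited and, where stated, median-centred, which means after shifting the log2 values of every library so that all share the same median. Per the labels' protocols, the samples were equalised on cell number before the spike-ins were added. From the values alone, fewer cells of a type and less RNA per cell cannot be told apart in bulk RNA. The labels name no batch. Epithelial markers split the lines: the summed level of KRT8, KRT18, KRT19, EPCAM and CDH1 was 2546 to 4639 FPKM in PATU-8902 and 381 to 973 FPKM in PATU-8988T, where KRT19 and CDH1 stayed at or below 0.192 FPKM. The summed level of the mesenchymal markers VIM, ZEB1, CDH2 and FN1 was 6.63 to 11.3 FPKM in PATU-8902 and 151 to 313 FPKM in PATU-8988T. The endothelial markers PECAM1 and CDH5 and the fibroblast markers COL1A1, COL1A2, DCN and PDGFRB summed to at most 0.484 and 1.17 FPKM. The leukocyte markers PTPRC, CD3E and CD68 summed to 10.1 to 17.5 FPKM in PATU-8902 and 3.70 to 10.0007 FPKM in PATU-8988T, nearly all from CD68, a lysosomal protein gene, while PTPRC and CD3E stayed at or below 0.330 FPKM. The part of these differences in the results below was not tested.

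MT2A and MT1E made up nearly all metallothionein RNA in both lines, and the summed level averaged lower in PATU-8902 than in PATU-8988T, with libraries that overlapped as deposited and not after centring. The summed level of the 5 metallothionein members was 486 to 1020 FPKM over the 9 PATU-8902 libraries and 805 to 2889 FPKM over the 9 PATU-8988T libraries. After median-centring it was 435 to 677 FPKM in PATU-8902 and 1214 to 2565 FPKM in PATU-8988T, with no overlap. MT2A, the most widely expressed human metallothionein, gave 78.0% to 86.6% of the sum in PATU-8902 and 62.1% to 70.4% in PATU-8988T. It ranked 114th to 164th among all genes by FPKM in PATU-8902 libraries and 33rd to 82nd in PATU-8988T libraries. MT1E gave 9.94% to 17.5% of the sum in PATU-8902 and 28.0% to 34.7% in PATU-8988T.

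MT2A in PATU-8902 measured 485, 507 and 725 FPKM at 24 h of inhibitor, 421, 880.3 and 402 FPKM at 6 h, and 779, 495 and 506 FPKM in DMSO. In PATU-8988T it measured 591, 826 and 719 FPKM at 24 h, 621, 643 and 1083 FPKM at 6 h, and 505, 2033 and 1582 FPKM in DMSO. The 2 highest values of the series were both PATU-8988T DMSO libraries, but the remaining library of that group was lower than any treated PATU-8988T library, so the 6 groups overlapped. Between the lines in DMSO, the MT2A log2 difference (PATU-8902 minus PATU-8988T) was -1.02 ± 0.43 (SE) as deposited and did not pass limma's test across all kept genes (Benjamini-Hochberg adjusted p = 0.0529). After median-centring it was -1.52 ± 0.24 and passed (limma adjusted p = 3.61e-05). Relative to its own library's median, MT2A stood 33.5 to 52.6 times higher in PATU-8902 and 72.4 to 169 times higher in PATU-8988T, with no overlap.

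MT1E, another metal-binding isoform of the same cluster, had the largest difference between the lines in DMSO among the tested members, on both scales. It measured 85.3, 114 and 116 FPKM at 24 h, 48.3, 119 and 69.2 FPKM at 6 h and 122, 96.7 and 85.3 FPKM in DMSO in PATU-8902. In PATU-8988T it measured 279, 353 and 348 FPKM at 24 h, 299.95, 359 and 535 FPKM at 6 h and 273, 809 and 654 FPKM in DMSO. Every PATU-8988T library lay above every PATU-8902 library, and the groups within each line overlapped. In DMSO the MT1E log2 difference was -2.38 ± 0.37 (SE; limma adjusted p = 2.58e-05) as deposited and -2.88 ± 0.19 (limma adjusted p = 6.66e-10) centred.

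**Figure D1:**
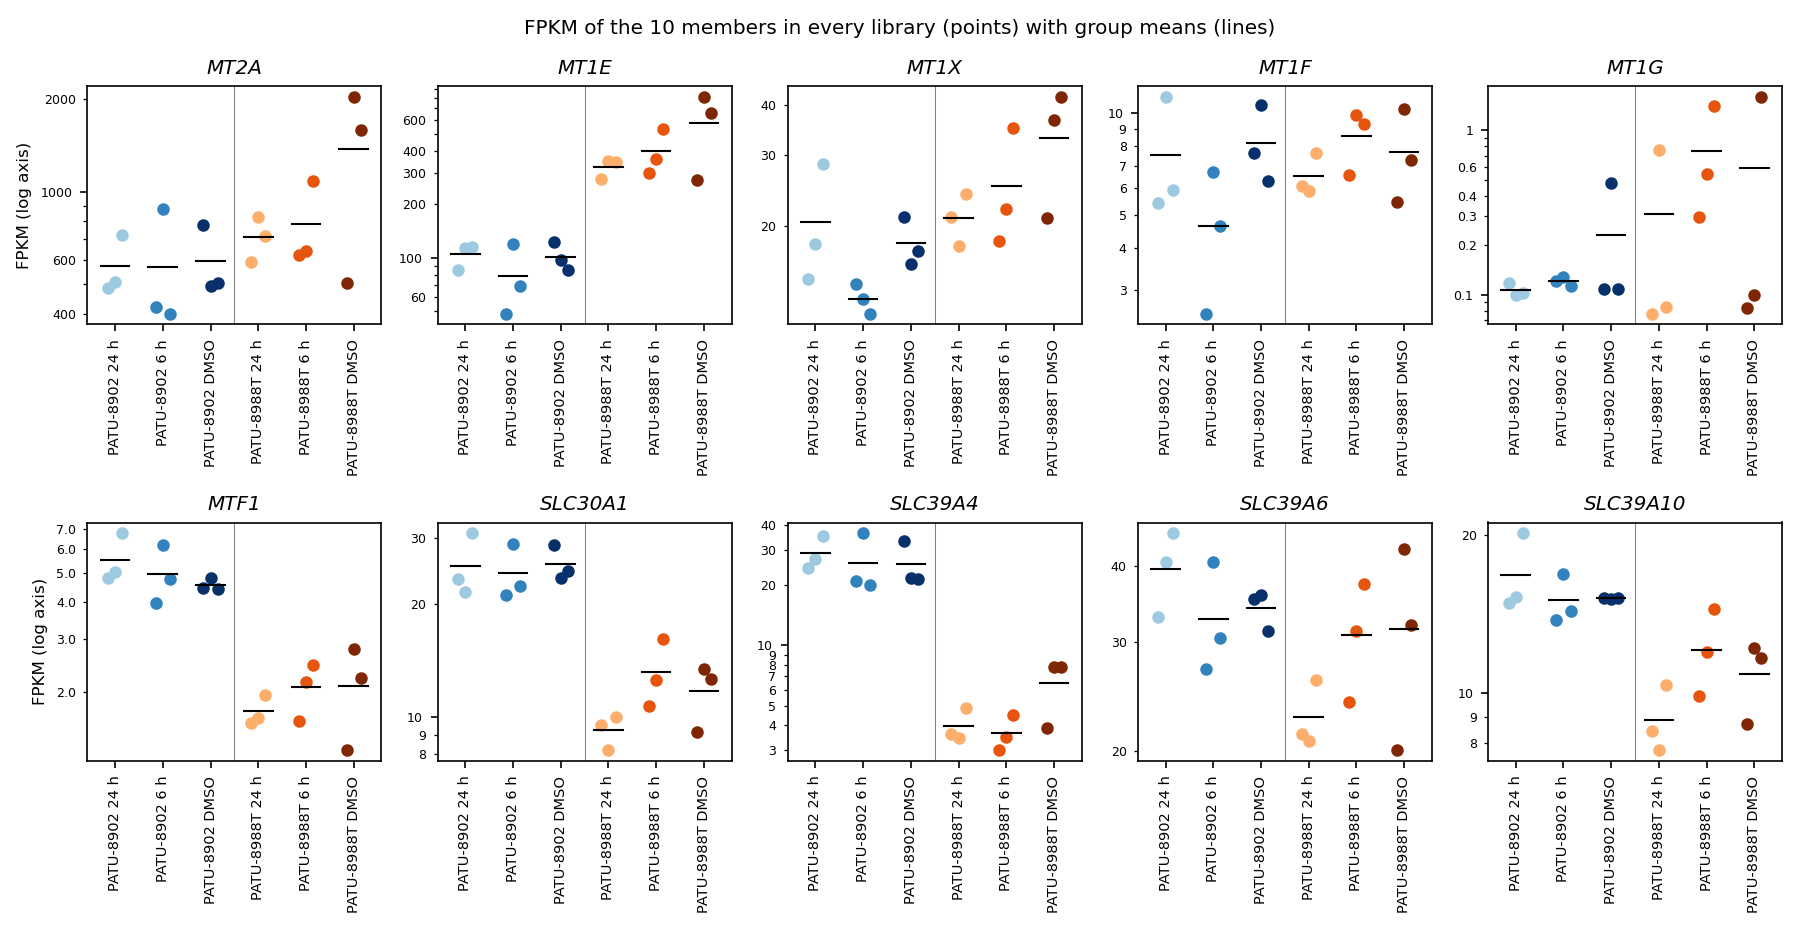
FPKM (log axis) of the 10 members in each of the 18 libraries, with points for libraries and lines for group means of 3. MT1E lies between 48.3 and 122 FPKM in PATU-8902 and between 273 and 809 FPKM in PATU-8988T, while MTF1, SLC30A1 and SLC39A4 are higher in PATU-8902.

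The balance between MT1E and MT2A differed between the lines. Within a library, which cancels any scaling between libraries, the FPKM of MT1E over that of MT2A averaged 0.167 ± 0.0318 (SD, 9 libraries) in PATU-8902 and 0.475 ± 0.0548 (SD, 9 libraries) in PATU-8988T. The ranges, 0.115 to 0.224 and 0.398 to 0.559, did not overlap. How many other gene pairs separate the lines in this way is not given here. In PATU-8902 the ratio was 0.186 ± 0.0339 at 24 h, 0.141 ± 0.0291 at 6 h and 0.174 ± 0.0200 in DMSO. In PATU-8988T it was 0.461 ± 0.0301 at 24 h, 0.512 ± 0.0407 at 6 h and 0.451 ± 0.0789 in DMSO (SD, n = 3 each), so within each line the treatments overlapped. MT1X over MT2A, in contrast, was 0.0309 ± 0.00694 in PATU-8902 and 0.0303 ± 0.00727 in PATU-8988T, with overlapping ranges.

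MT1X, MT1F and MT1G, further isoforms of the cluster, were much lower than MT2A per length. MT1X measured 14.8, 18.01 and 28.5 FPKM at 24 h, 14.3, 13.1 and 12.1 FPKM at 6 h and 21.1, 16.1 and 17.3 FPKM in DMSO in PATU-8902. In PATU-8988T it measured 21.1, 17.9 and 23.9 FPKM at 24 h, 18.3, 22.0 and 35.1 FPKM at 6 h and 20.9, 36.7 and 41.9 FPKM in DMSO. The lines overlapped over all libraries, and in DMSO the highest PATU-8902 library (21.1 FPKM) lay just above the lowest PATU-8988T library (20.9 FPKM). The MT1X difference in DMSO was -0.79 ± 0.28 (SE; limma adjusted p = 0.0255) as deposited. It lost that call, at adjusted p values from 0.0656 to 0.119 in limma, without any of PATU-8902 DMSO replicates 2 and 3 and PATU-8988T DMSO replicates 2 and 3. After centring it was -1.29 ± 0.16 (limma adjusted p = 2.47e-06).

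MT1F did not separate the lines, with 2.55 to 11.2 FPKM over the PATU-8902 libraries and 5.47 to 10.3 FPKM over the PATU-8988T libraries. Its DMSO difference was 0.09 ± 0.30 as deposited and -0.41 ± 0.26 centred, neither past the threshold (limma adjusted p = 0.809 and 0.167). MT1G did not reach the mean of 1 FPKM needed for the test. Each library lists at least 6993 rows at 1 shared low value, between 0.0795 and 0.118 FPKM, and MT1G lay below 1.5 times that value in 8 of 9 PATU-8902 libraries and in 4 of 9 PATU-8988T libraries. Its highest values were 1.59 and 1.40 FPKM, in PATU-8988T DMSO replicate 3 and 6 h replicate 3. Among 11 further metallothionein rows (MT1A, MT1B, MT1H, MT1M, MT3, MT4 and others), only the pseudogene MT1DP reached the mean of 1 FPKM.

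How far the metallothionein rows can share reads was read from reference transcripts. Of the 75-base stretches in the coding gene's GENCODE 29 transcripts, 0 of 990 for MT2A and 0 of 733 for MT1F occurred exactly in another gene. For MT1E 16 of 1123 did (1.42%) and for MT1G 51 of 890 (5.73%). For MT1X 275 of 748 did (36.8%), in MT1G, the pseudogene MT1XP1 or AC026461.1, the largest share of the 5. Stretches that occurred in another of the 5 members were fewer: 11 for MT1E, 33 for MT1G and 22 for MT1X. Stretches that nearly match another gene were not counted.

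**Figure D2:**
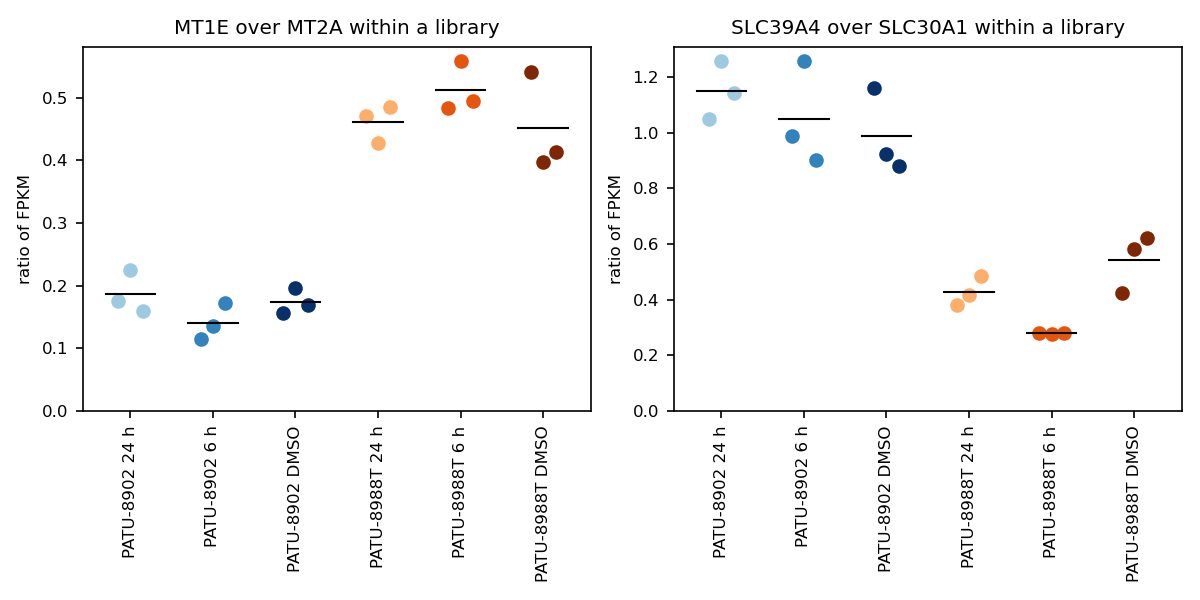
Ratio of FPKM within a library for MT1E over MT2A and for SLC39A4 over SLC30A1, with points for the 18 libraries and lines for group means of 3. MT1E over MT2A is at most 0.224 in PATU-8902 and at least 0.398 in PATU-8988T, and SLC39A4 over SLC30A1 is lowest at 6 h in PATU-8988T, at 0.277 to 0.279.

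The zinc sensor, the exporter and the importer SLC39A4 ran the opposite way from MT1E, being higher in PATU-8902. MTF1 averaged 5.53 ± 1.09 FPKM at 24 h, 4.97 ± 1.13 at 6 h and 4.56 ± 0.209 in DMSO in PATU-8902 (SD, n = 3 each). In PATU-8988T the means were 1.72 ± 0.203, 2.07 ± 0.439 and 2.09 ± 0.759 FPKM in the same order. The lowest PATU-8902 library (3.96 FPKM) lay above the highest PATU-8988T library (2.77 FPKM), and the groups within a line overlapped. The MTF1 DMSO difference was 0.88 ± 0.20 (limma adjusted p = 9.16e-04) as deposited and 0.38 ± 0.09 (limma adjusted p = 0.00205) centred.

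SLC30A1 measured 23.2, 21.5 and 30.8 FPKM at 24 h, 21.2, 28.9 and 22.3 FPKM at 6 h and 28.7, 23.5 and 24.5 FPKM in DMSO in PATU-8902. In PATU-8988T it measured 9.54, 8.20 and 10.02 FPKM at 24 h, 10.7, 12.6 and 16.2 FPKM at 6 h and 9.16, 13.5 and 12.6 FPKM in DMSO. The lines did not overlap. In DMSO the SLC30A1 difference was 1.07 ± 0.21 (limma adjusted p = 3.10e-04) as deposited and 0.57 ± 0.09 (limma adjusted p = 2.15e-05) centred, so SLC30A1 and MT2A, both known MTF1 targets with promoters printed above, differed between the lines in opposite directions on the centred scale.

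SLC39A4 showed the widest gap among the 4 transporter members. It measured 24.4, 27.04 and 35.2 FPKM at 24 h, 20.9, 36.3 and 20.1 FPKM at 6 h and 33.3, 21.7 and 21.6 FPKM in DMSO in PATU-8902. In PATU-8988T it measured 3.63, 3.43 and 4.84 FPKM at 24 h, 2.9997, 3.49 and 4.52 FPKM at 6 h and 3.88, 7.83 and 7.84 FPKM in DMSO. The lowest PATU-8902 library, at 20.1 FPKM, stood far above the highest PATU-8988T library, at 7.84 FPKM. The SLC39A4 DMSO difference was 1.84 ± 0.27 (limma adjusted p = 1.37e-05) as deposited and 1.34 ± 0.11 (limma adjusted p = 1.57e-08) centred.

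The importers SLC39A6 and SLC39A10 did not follow SLC39A4. SLC39A6 averaged 39.5 ± 6.12, 32.8 ± 7.005 and 34.1 ± 2.45 FPKM at 24 h, 6 h and in DMSO in PATU-8902, against 22.7 ± 2.91, 30.9 ± 6.65 and 31.6 ± 11.3 FPKM in PATU-8988T (SD, n = 3 each). SLC39A10 averaged 16.8 ± 2.97, 15.01 ± 1.63 and 15.2 ± 0.0318 FPKM in PATU-8902 and 8.86 ± 1.35, 12.1 ± 2.28 and 10.8 ± 1.87 FPKM in PATU-8988T in the same order. Over all libraries the lines overlapped for both genes, though in DMSO alone SLC39A10 did not. In DMSO the SLC39A6 difference was 0.17 ± 0.26 as deposited (limma adjusted p = 0.605) and -0.33 ± 0.08 centred (limma adjusted p = 0.00224), so its direction turned with the scaling. SLC39A10 differed by 0.46 ± 0.19 as deposited (limma adjusted p = 0.0504) and by -0.04 ± 0.11 centred (limma adjusted p = 0.757).

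Of the 9 members tested between the lines in DMSO, 3 were higher in PATU-8902 (MTF1, SLC30A1 and SLC39A4) and 2 lower (MT1E and MT1X) as deposited, where 54.2% of all kept genes passed, 41.8% higher and 12.4% lower. After centring 3 were higher and 4 lower, adding MT2A and SLC39A6, where 72.2% of all kept genes passed, 34.4% higher and 37.8% lower. The median difference of the members was 0.17 as deposited and -0.33 centred, against 0.45 and -0.05 over all kept genes. In DMSO the 3 libraries of a line did not overlap those of the other for 4 higher members (those 3 and SLC39A10) and 1 lower member (MT1E) as deposited, where 57.4% of kept genes did not overlap, 46.5% higher and 10.8% lower. Centred, 3 members were higher and 4 lower without overlap, where 68.7% of kept genes did not overlap, 32.5% higher and 36.2% lower. With shares this large in the background, the counts do not set these genes apart from the rest. The shares cover DMSO alone. How many kept genes separate all 9 libraries of 1 line from those of the other is not given here.

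**Figure D3:**
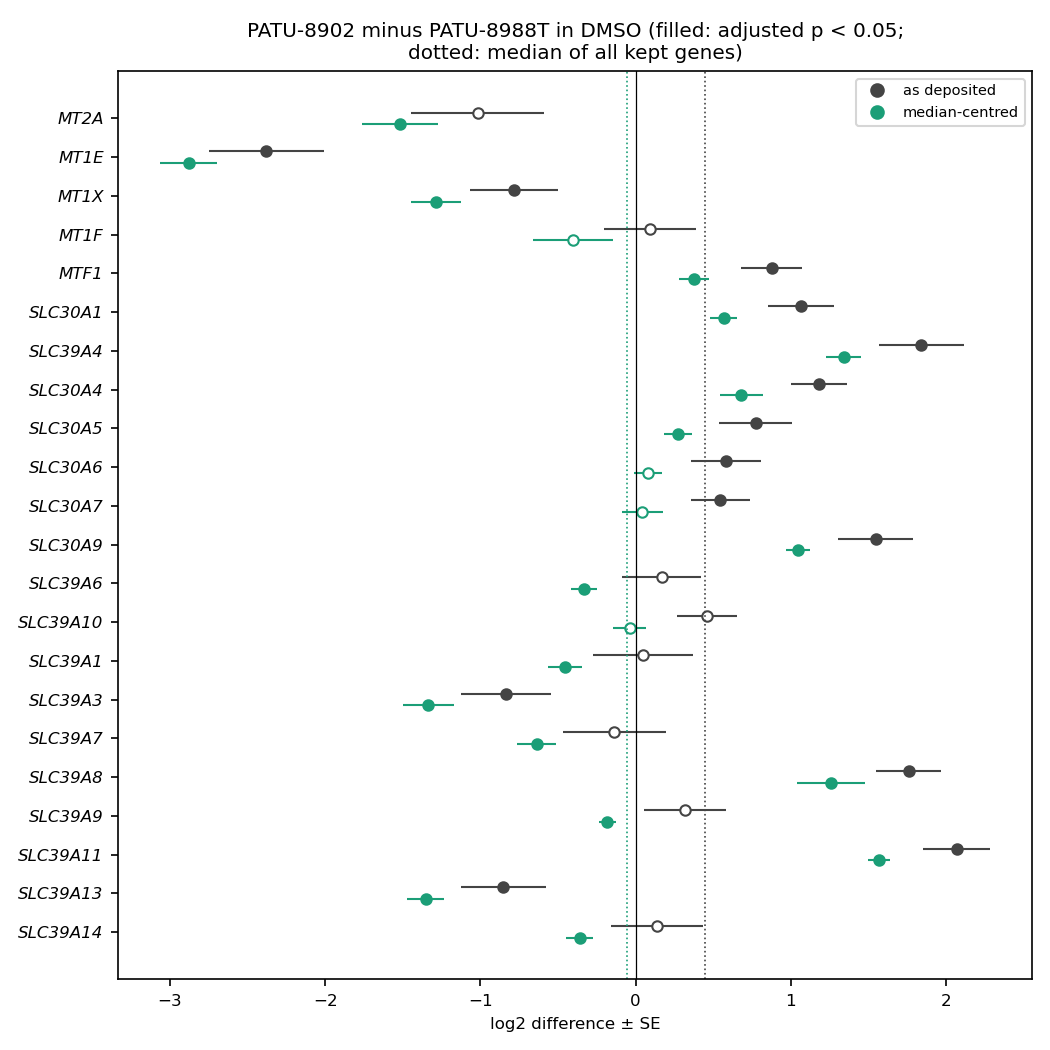
Log2 difference (PATU-8902 minus PATU-8988T, DMSO, points with SE bars) of 9 members and 13 further zinc transporters, as deposited and median-centred, with filled points past an adjusted p of 0.05 and dotted lines at the median of all kept genes. MT1E sits lowest at -2.38 as deposited and SLC39A11 highest at 2.07.

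Other zinc transporters were counted in the same comparison, beside the shares of all kept genes higher and lower in PATU-8902 (41.8% and 12.4% as deposited, 34.4% and 37.8% centred). Of 9 further SLC30 exporters 5 were kept, and all 5 (SLC30A4, SLC30A5, SLC30A6, SLC30A7 and SLC30A9) were higher in PATU-8902 in DMSO, with a median difference of 0.77. After centring 3 of the 5 passed and the median was 0.27. SLC30A9, a mitochondrial zinc transporter, differed by 1.55 ± 0.24 as deposited and 1.05 ± 0.08 centred. Of 11 further SLC39 importers 8 were kept, of which SLC39A11 (2.07 ± 0.22) and SLC39A8 (1.76 ± 0.21), the importer ZIP8, were higher and SLC39A13 (-0.85 ± 0.27) and SLC39A3 (-0.83 ± 0.29) lower as deposited. Centred, the same 2 were higher and 6 lower, among them the endoplasmic reticulum transporter SLC39A7 (-0.64 ± 0.13) and the iron and zinc importer SLC39A14 (-0.36 ± 0.09), which were -0.14 ± 0.33 and 0.14 ± 0.30 as deposited.

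Lists of other signals that reach metallothionein genes were counted in the same way, beside the same shares of 41.8% higher and 12.4% lower as deposited and 34.4% and 37.8% centred. Of 8 NRF2 targets, genes of the oxidative stress response, 1 was higher and 6 lower in PATU-8902 as deposited. HMOX1, which encodes haem oxygenase, had the widest gap at -4.61 ± 0.31 as deposited and -5.11 ± 0.14 centred. Both kept glucocorticoid-induced genes of 6 listed, FKBP5 (-0.71 ± 0.26) and SGK1 (-4.46 ± 0.23), were lower. Of 8 heat shock genes 5 were higher and 0 lower, and of 9 copper handling genes 1 was higher (ATP7A, a copper exporter, 1.14 ± 0.15) and 2 lower (ATP7B, -1.18 ± 0.23, and COMMD1, -1.50 ± 0.30). Centred, the counts higher and lower were 1 and 7 for NRF2 targets, 0 and 2 for glucocorticoid-induced genes, 5 and 1 for heat shock genes and 1 and 6 for copper handling.

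No member passed the test after inhibitor in PATU-8902 on either scale. At 24 h against DMSO 0.113% of all kept genes passed as deposited and 0.444% centred, and 0 of 9 members did, with differences between -0.15 (MT1F) and 0.22 (MTF1) as deposited. The groups of all 9 members overlapped as deposited, where those of 6.49% of kept genes did not. On the centred scale the SLC30A1 libraries did not overlap, at 1.74 to 1.82 times the library median at 24 h against 1.84 to 1.96 times in DMSO and the groups of 13.1% of all kept genes did not overlap either. The SLC30A1 difference was -0.09 ± 0.09 centred (limma adjusted p = 0.775) and -0.03 ± 0.21 as deposited.

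At 6 h in PATU-8902 the metallothioneins had the most negative values among the members as deposited, short of the threshold. Over all kept genes 0.00871% passed as deposited and 0.113% centred. MT1F measured 2.55, 6.71 and 4.63 FPKM at 6 h against 7.65, 10.6 and 6.31 FPKM in DMSO, which overlapped. Its difference was -0.75 ± 0.30 as deposited and -0.71 ± 0.26 centred (limma adjusted p = 1.00 on both scales). Relative to the library median MT1F did not overlap, at 0.238 to 0.401 at 6 h against 0.505 to 0.832 in DMSO, and neither did 8.03% of all kept genes, 4.37% in the lower direction. MT1X did not overlap as deposited, with all 3 libraries at 6 h (12.1 to 14.3 FPKM) under all 3 in DMSO (16.1 to 21.1 FPKM), where 2.04% of kept genes did not overlap, 0.889% in the lower direction. Relative to the library median MT1X overlapped, at 0.784 to 1.34 at 6 h and 1.26 to 1.41 in DMSO. Its difference was -0.43 ± 0.28 as deposited and -0.38 ± 0.16 centred. MT1E differed by -0.44 ± 0.37 and MT2A by -0.13 ± 0.43 as deposited, and the 5 members MTF1, SLC30A1, SLC39A4, SLC39A6 and SLC39A10 lay between -0.09 and 0.09.

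At 24 h against 6 h in PATU-8902, 0% of kept genes passed as deposited (197 at an unadjusted p under 0.05) and 0.244% centred, with 0 members on either scale. MT1F differed by 0.61 ± 0.30, MT1X by 0.55 ± 0.28 and MT1E by 0.49 ± 0.37 as deposited. The MT1X libraries at 24 h (14.8 to 28.5 FPKM) all lay above those at 6 h, and 3.98% of kept genes did not overlap, 3.37% in the higher direction. Relative to the library median MT1X overlapped, at 1.16 to 1.64 at 24 h and 0.784 to 1.34 at 6 h. On that scale SLC39A6 was the single member without overlap, at 2.59 to 3.28 at 24 h against 2.42 to 2.55 at 6 h, where 14.3% of kept genes did not overlap. These libraries are the 6 h libraries of the comparison above, so the values are not separate evidence.

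**Figure D4:**
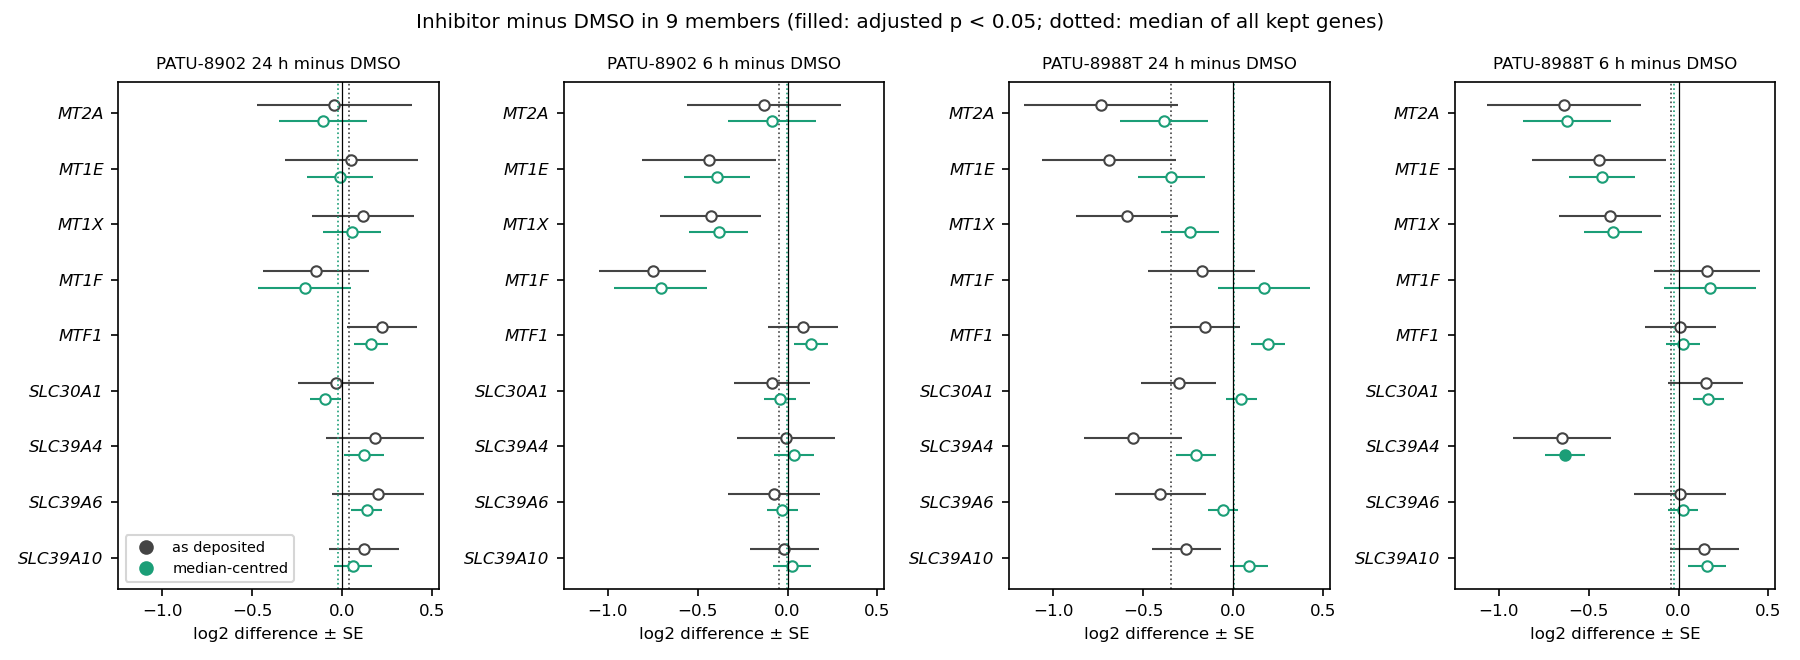
Log2 differences of inhibitor minus DMSO (points with SE bars) of 9 members in each line and time, as deposited and median-centred, with filled points past an adjusted p of 0.05 and dotted lines at the median of all kept genes. SLC39A4 at 6 h in PATU-8988T, -0.63 centred, is the only filled point.

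In PATU-8988T at 24 h, 0% of all kept genes passed on either scale (687 as deposited and 1923 centred at an unadjusted limma p under 0.05), and 0 of 9 members did. All 9 members had negative differences as deposited, where the median of all kept genes was -0.35. MT2A at -0.74 ± 0.43, MT1E at -0.69 ± 0.37, MT1X at -0.59 ± 0.28 and SLC39A4 at -0.56 ± 0.27 were furthest from 0, each with a limma adjusted p of 0.334. Centred, they were -0.39 ± 0.24, -0.34 ± 0.19, -0.24 ± 0.16 and -0.21 ± 0.11, MT1F, MTF1, SLC30A1 and SLC39A10 were above 0, and SLC39A6 stood at -0.06 ± 0.08. As deposited the groups of all 9 members overlapped, where those of 1.32% of kept genes did not. On the centred scale MTF1 at 24 h lay above DMSO and SLC39A4 below it with no overlap, and 7.56% of kept genes did not overlap either.

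This comparison moved with PATU-8988T DMSO replicate 1, the library of lowest median. Without it, 5 members passed limma's test as deposited at 24 h, all lower after inhibitor: MT2A by -1.34 (adjusted p = 0.0118), MT1E by -1.16, MT1X by -0.88, SLC39A4 by -0.84 and SLC39A6 by -0.69. With that library left out, 6508 genes passed in total, 6502 of them lower, so the 5 calls came with many others. The filter of 1 FPKM was applied again to the remaining libraries, and the number of genes tested there is not given here. Centred and without PATU-8988T DMSO replicate 1, MT2A (-0.74) and MT1E (-0.56) passed, and 4682 genes did in total, 2261 higher and 2421 lower. These counts do not set the members apart. MT2A varied more than the library median across that group: the highest PATU-8988T DMSO library held 4.03 times the MT2A of the lowest, while the library medians differed by 1.97 times. MT2A stood 82.5, 169 and 154 times above the library median in DMSO replicates 1 to 3, against 72.4 to 124 times in the 6 treated libraries.

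**Figure D5:**
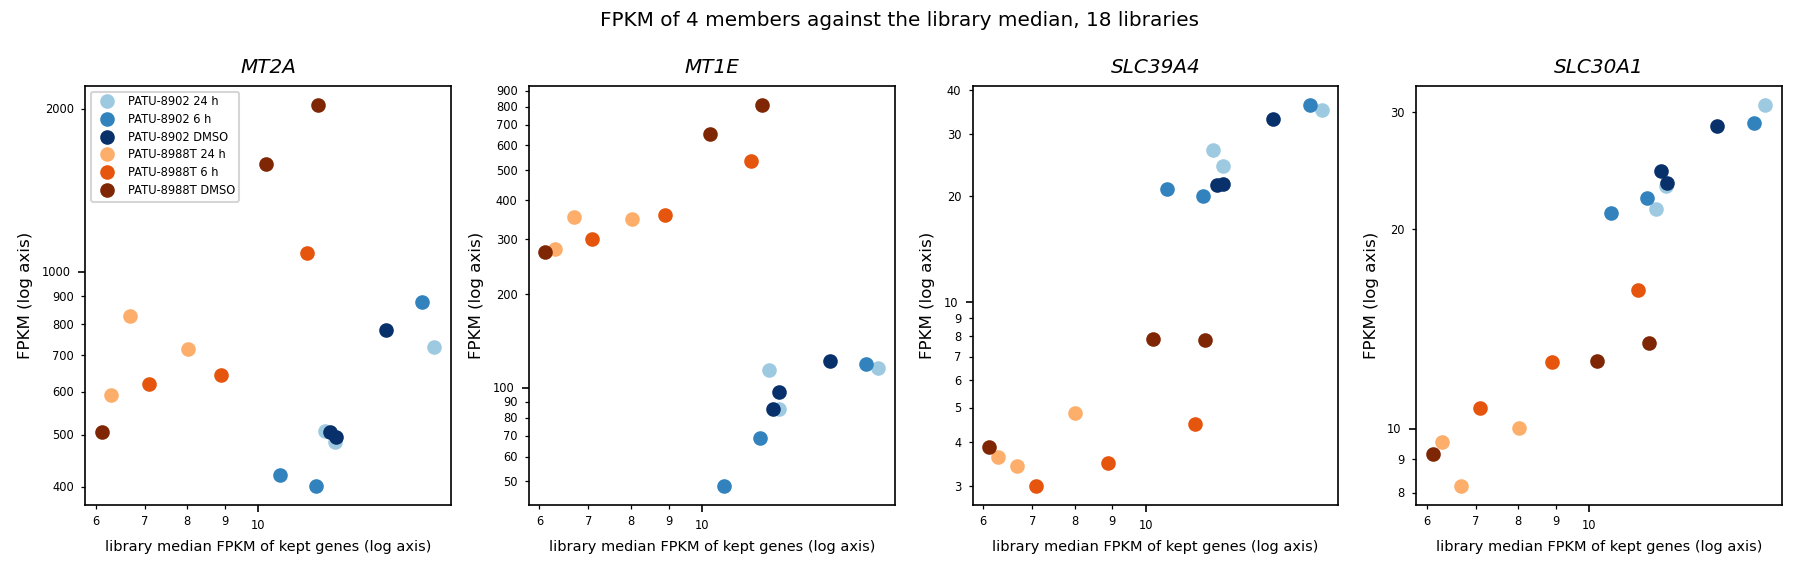
FPKM of MT2A, MT1E, SLC39A4 and SLC30A1 (log axes) against the median FPKM of kept genes in the same library, 18 libraries coloured by group. Within PATU-8988T, SLC30A1 runs with the library median, and the DMSO replicates 2 and 3 hold the highest MT2A values, 2033 and 1582 FPKM.

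At 6 h in PATU-8988T the importer SLC39A4 was the single member to pass, and only after centring. As deposited, 0% of kept genes passed (287 at an unadjusted limma p under 0.05). Centred, 0.0784% passed, 0.0261% in the lower direction, and 1 of 9 members did. SLC39A4 was 2.9997, 3.49 and 4.52 FPKM at 6 h against 3.88, 7.83 and 7.84 FPKM in DMSO, which overlapped, as did the groups of every other member tested (2.05% of kept genes did not overlap as deposited). Relative to the library median it was 0.387 to 0.423 at 6 h, 0.513 to 0.605 at 24 h and 0.635 to 0.766 in DMSO, with no overlap between any of these groups. Of all kept genes on the centred scale, 19.7% did not overlap between 6 h and DMSO, 21.1% between 24 h and 6 h and 7.56% between 24 h and DMSO. The SLC39A4 difference was -0.65 ± 0.27 as deposited (limma adjusted p = 1.00) and -0.63 ± 0.11 centred (limma adjusted p = 0.0467). The centred call was lost with the replicate number as a block and without any library of the 2 groups except DMSO replicate 1, while its value stayed between -0.68 and -0.56.

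A ratio of an importer to the exporter SLC30A1 within a library needs no scaling between libraries. SLC39A4 over SLC30A1 in PATU-8988T was 0.380, 0.418 and 0.483 at 24 h, 0.279, 0.277 and 0.279 at 6 h and 0.424, 0.581 and 0.620 in DMSO. The 6 h libraries lay below all others, and 24 h and DMSO overlapped. How many other gene pairs set 6 h apart in this way is not given here. Of single kept genes on the centred scale, 19.7% did not overlap between 6 h and DMSO and 21.1% between 24 h and 6 h. The ratio uses the same SLC39A4 values as the paragraph above, so it is not separate evidence. In PATU-8902 it was 1.05, 1.26 and 1.14 at 24 h, 0.990, 1.26 and 0.901 at 6 h and 1.16, 0.923 and 0.881 in DMSO, all overlapping. The ratios of the other importer members did not set 6 h apart in PATU-8988T. SLC39A10 over SLC30A1 was 0.884 to 1.03 at 24 h, 0.891 to 0.950 at 6 h and 0.903 to 0.949 in DMSO. SLC39A6 over SLC30A1 was 2.23 to 2.60, 2.24 to 2.48 and 2.19 to 3.16 in the same order. A ratio shows unequal levels of the 2 genes and not which of them differed.

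The other members at 6 h in PATU-8988T did not pass. MT2A differed by -0.64 ± 0.43 as deposited and -0.62 ± 0.24 centred (limma adjusted p = 0.123), MT1E by -0.44 ± 0.37 and -0.43 ± 0.19, and MT1X by -0.38 ± 0.28 and -0.36 ± 0.16. Relative to the library median MT1X did not overlap, at 2.48 to 3.01 at 6 h against 3.04 to 4.09 in DMSO, and neither did 19.7% of kept genes. SLC30A1 (0.15 ± 0.21 and 0.17 ± 0.09), MT1F (0.16 ± 0.30 and 0.18 ± 0.26) and SLC39A10 (0.14 ± 0.19 and 0.16 ± 0.11) had positive values. Without DMSO replicate 1 the centred fit called 5 members: MT2A (-0.97), MT1E (-0.64) and SLC39A4 (-0.66) lower and SLC30A1 (0.27) and SLC39A10 (0.28) higher. That fit called 4900 genes in total, 2189 higher and 2711 lower, so the count does not set the members apart. The number of genes tested in it is not given here.

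At 24 h against 6 h in PATU-8988T, 0% of kept genes passed on either scale (665 as deposited and 544 centred at an unadjusted limma p under 0.05). SLC30A1 at 24 h (8.20 to 10.02 FPKM) lay below 6 h (10.7 to 16.2 FPKM) with no overlap as deposited, and neither did 9.16% of kept genes overlap, 9.09% in the lower direction. Its difference was -0.45 ± 0.21 as deposited and -0.12 ± 0.09 centred, where the groups overlapped. SLC39A4 differed by 0.09 ± 0.27 as deposited and 0.42 ± 0.11 centred (limma adjusted p = 0.855), where the groups did not overlap. The centred MTF1 groups did not overlap either, at 0.244 to 0.250 times the library median at 24 h against 0.211 to 0.242 times at 6 h, nor did those of 21.1% of kept genes.

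Whether the inhibitor's effect differed between the lines was tested as an interaction (effect in PATU-8902 minus effect in PATU-8988T), and no member passed. At 24 h 0.00871% of kept genes passed as deposited and 0.227% centred, and MT1E (0.74 ± 0.53), SLC39A4 (0.74 ± 0.39), MT1X (0.71 ± 0.40) and MT2A (0.69 ± 0.61) had the furthest values as deposited, each with a limma adjusted p of 0.547. At 6 h 0% passed on either scale (99 as deposited and 1385 centred at an unadjusted limma p under 0.05). MT1F stood at -0.91 ± 0.42 as deposited and -0.88 ± 0.36 centred, and SLC39A4 at 0.64 ± 0.39 and 0.67 ± 0.16 (limma adjusted p = 0.403 centred for both). Without PATU-8988T DMSO replicate 1, SLC39A4 (0.70), MT2A (0.89) and SLC30A1 (-0.31) passed in the centred 6 h interaction. In total 2301 genes passed there, 1116 higher and 1185 lower, so the count does not set the members apart. The number of genes tested in that fit is not given here. No gene of the other transporter, NRF2, glucocorticoid, heat shock or copper lists passed in any inhibitor, time or interaction comparison on either scale.

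The genes most like each member were sought among kept genes outside the members and outside small RNAs. Likeness was Pearson's r over the 18 libraries after centring and subtracting each line's mean. It is a description in which the points share libraries and their unknown depth. Group means were not subtracted, so differences between groups and single libraries enter r. MT2A stood highest against the library median in PATU-8988T DMSO replicates 2 and 3 (169 and 154 times). The part of these libraries in r was not tested. MT2A was most like RAB1B (0.984), POLD2 (0.977) and C19orf53 (0.975), and MT1E like TRUB2 (0.928), NUTF2 (0.924) and CKAP4 (0.924). MT1X was most like PIGL (0.801) and MT1F like DNAJC2 (0.858). MTF1 was nearest to PCLO (0.893), SLC30A1 to FAS (0.844), SLC39A4 to ECE2 (0.849), SLC39A6 to PTP4A2 (0.936) and SLC39A10 to AP5M1 (0.948). Between members, r was 0.76 for MT2A with MT1E, 0.71 for SLC30A1 with SLC39A10 and -0.89 for MT2A with SLC39A10. Among 11476 other kept genes, MT1E ranked 1685th by r with MT2A, and MT2A ranked 399th with MT1E. SLC39A10 ranked 88th with SLC30A1, and SLC30A1 ranked 1392nd with SLC39A10. For the negative pair, SLC39A10 ranked 11412th with MT2A, and MT2A ranked 11432nd with SLC39A10. For the other tested metallothionein pairs, r was 0.40 for MT1E with MT1F and 0.30 for MT1E with MT1X. It was 0.21 for MT2A with MT1X, -0.0015 for MT1X with MT1F and -0.19 for MT2A with MT1F.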

How the data were processed

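The authors deposited 1 table of FPKM values (Cuffnorm output, per the submitters' processing notes) for 18 libraries, made with HISAT, Cufflinks and Cuffnorm on hg19 (tool versions: not stated in the labels or files used here). Per the labels' protocols, ERCC controls went into samples equalised on cell number, ahead of KAPA mRNA library preparation and single-end sequencing. The table holds no counts, so the depth behind a value is unknown. No value is 0: the lowest of a library lies between 0.0614 and 0.116 FPKM, and many of its rows share 1 low value, between 0.0795 and 0.118 FPKM.

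Differences were computed on log2(FPKM + 1), which understates changes of low genes, for the 11477 genes averaging 1 FPKM or more. One limma model with a mean-variance trend (limma 3.58.1, R 4.3.3) was fitted to 6 group means over 18 libraries with 12 residual degrees of freedom. It was tried on simulated data with independent noise per gene. These held no shift shared by all genes of a library, so they do not show how the fit handles such shifts. Tests are 2-sided, with Benjamini-Hochberg adjustment over kept genes within a contrast and a threshold of 0.05. Alternatives were median-centring, spike-in rescaling, no filter, a minimum mean of 5 FPKM, a pseudocount of 0.1, a replicate block, only the compared groups, and leaving out each library. With a library left out, the filter was applied again to the others. The members and lists were chosen with earlier results of these data known. All 10 members are named throughout and other genes only from the lists. The 3 kept genes of highest r with each member, outside the members and small RNAs, are named as most alike. Metal response element cores were counted in RefSeq GRCh38.p14 promoter windows of 250 bases, and 75-base stretches in GENCODE 29 transcripts.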

Additional observations from a re-analysis of the deposited data

How the results depend on the processing

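Between the lines in DMSO, MT1E, MTF1, SLC30A1 and SLC39A4 kept their direction and their call under every alternative in which they were tested. MTF1, with a mean of 3.49 FPKM, was not tested under the filter of 5 FPKM. SLC39A6 turned from 0.17 as deposited to -0.33 after median-centring. MT2A passed under a pseudocount of 0.1, a filter of 5 FPKM, median-centring and without PATU-8902 or PATU-8988T DMSO replicate 1, SLC39A10 without PATU-8988T DMSO replicate 2, and MT1X lost its call with only the groups compared (limma adjusted p = 0.0689). Depth is unknown and limits low rows such as MT1G.

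The number of all kept genes called, as deposited, changed by over 1.5 times as follows. In PATU-8902 at 24 h against DMSO, 13 became 25 with no filter, 3 with only the groups compared and 51 after median-centring, and ran from 6 to 11 leaving out a library. At 6 h, 1 became 7, 0 and 13 under the same settings, and 0 to 3 leaving out a library. At 24 h against 6 h, 0 became 11 with no filter and 28 after median-centring (17 to 23 leaving out a library there). In PATU-8988T at 24 h, 0 became 3 with no filter and 4 with only the groups compared. At 6 h, 0 became 2 with no filter, 1 with a filter of 5 FPKM, 5 with only the groups compared and 9 after median-centring, where 1 member passed. At 24 h against 6 h, 0 became 13 with no filter and 29 with only the groups compared. The 24 h interaction, 1 gene, became 0 with a pseudocount of 0.1 or a filter of 5 FPKM, 2 with no filter and 26 after median-centring, and the 6 h interaction, 0, became 1 with only the groups compared. The cause was not tested.

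Leaving out a library moved PATU-8988T at 24 h to 0 to 5 members and 0 to 6508 genes as deposited, and 0 to 2 members and 0 to 4682 genes centred. At 6 h it gave 0 to 3 genes as deposited, and 0 to 5 members and 4 to 4900 genes centred. At 24 h against 6 h it gave 0 to 1 gene on both scales. The 24 h interaction gave 0 to 14 genes as deposited and 21 to 645 centred, and the 6 h interaction 0 to 2 genes as deposited and 0 to 3 members and 0 to 2301 genes centred. The upper ends in PATU-8988T against DMSO and in the interactions were without PATU-8988T DMSO replicate 1, except the 2 genes of the 6 h interaction as deposited (without PATU-8902 DMSO replicate 1).

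Between the lines in DMSO the replicate number was a block shared by both lines, and MT2A (adjusted p = 0.0422) and SLC39A10 (0.0261) passed in limma. In all other comparisons the block was the replicate number within a line. The centred limma call of SLC39A4 at 6 h in PATU-8988T was then lost (adjusted p = 0.0782), leaving 0 members and 5 genes there. The centred PATU-8902 count at 24 h against 6 h fell to 17 and the deposited one at 6 h to 0. The numbers do not pair the libraries of a line by their values: r of deviations over 18 same-numbered pairs within a line ran from -0.222 to 0.143, with 3 pairs above 0.1. Pairs between the lines were not checked.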
